A study of Mus musculus with 2 samples.

Results

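The microRNA (miRNA) families Mir297, Mir466, Mir467 and Mir669 were examined in mouse embryonic neural tube, the tissue that forms the brain and spinal cord. Members were chosen by gene symbol alone: a family name, at most 1 lower case letter and an optional copy number. Of the 1973 miRNA genes in the deposited tables, 69 were members. Of these, 59 lie inside the gene Sfmbt2 on chromosome 2 and 10 lie elsewhere. The samples form 1 group of 2 libraries, labelled as biological replicates, from embryos of strain B6NCrl aged 15.5 days with males and females mixed. Library 1 pooled neural tubes of 78 embryos and library 2 those of 62. No allele, agent or second tissue was part of the design, so the data give the level of each gene and its agreement between the pools.

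A miRNA is cut from a hairpin precursor and guides the silencing of messenger RNAs through its seed, bases 2 to 8 of the mature strand. The families grew by repeated copying of a short segment inside an intron of Sfmbt2, which encodes a Polycomb group protein, and the large cluster is known from rodents. Sfmbt2 and its miRNAs are imprinted, with expression from the paternal copy, and are best known from the placenta, where deletion of the cluster impairs growth. Individual members have been studied elsewhere, such as Mir669a, which represses the muscle regulator MyoD, and Mir466l, which has been linked to the messenger RNA of the cytokine IL-10.

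Each value below is a count of short reads on the sense strand of a gene, or CPM, the count scaled to a library total of 1000000 sense-strand counts. The totals were 4228685 and 6039889. Each read is a short RNA, so levels of genes are compared with no scaling for length. Reads that aligned to several places, 29.4% and 29.7% of all reads, were counted in no gene. For a gene with 0 counts the limit of detection was set at 3 counts, which is 0.709 CPM for library 1 and 0.497 CPM for library 2. That limit and all intervals below cover counting error only. Neural markers (Mir9, Mir124a, Mir137, Mir128, Mir219a, Mir338 and Mir92b genes) summed to 12716 and 13939 CPM, with 8 of 12 detected and 0 of them at 0 in both libraries. Every Mir124a gene and Mir9-2 had some count but were not among the 8 detected. Mir137 alone gave 6615 CPM of the neural sum in library 1 and 7220 CPM in library 2. Markers of 3 other tissues stood apart between the pools, each higher in library 1 and with 0 genes at 0 in both libraries. Epithelial markers (the Mir200 family, Mir203 and Mir205) came to 5458 CPM for library 1 against 631 CPM for library 2, with 7 of 7 detected. Those of mesenchyme and smooth muscle (Mir143, Mir145a, Mir199a and Mir214 genes) came to 19290 against 4459 CPM, with 4 of 5 detected, and those of endocrine tissue and gut (Mir375, Mir192 and Mir194 genes) to 1225 against 238 CPM, with 3 of 4 detected. The placenta and early embryo list (Mir675 and the genes Mir290 to Mir295) summed to 24.6 and 18.0 CPM, with 3 of 8 detected and Mir290a at 0 in both libraries. Of these sums, Mir675 gave 15.1 and 7.62 CPM.

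RefSeq (build GRCm38.p6) supplied a mature sequence for 8 of the 69 members, all of them among the 10 outside Sfmbt2. They are shown because these genes had no count and because they display the repeats that the families share. Letters run 5′ to 3′ and capitals mark the seed.

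mmu-miR-466q: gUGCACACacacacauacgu

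mmu-miR-466k: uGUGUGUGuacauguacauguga

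mmu-miR-669n: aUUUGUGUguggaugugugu

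mmu-miR-467g: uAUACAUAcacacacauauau

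mmu-miR-467h: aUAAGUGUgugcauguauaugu

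mmu-miR-466j: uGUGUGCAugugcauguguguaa

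mmu-miR-467f: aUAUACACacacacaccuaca

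mmu-miR-466i-3p: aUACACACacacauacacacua

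The 8 sequences have 8 different seeds, so among these 8 the family names do not group genes by seed. Seeds of the members inside Sfmbt2 were not available here. Alternating bases fill much of some of the 8 sequences and less of others. The longest stretch of alternating A and C was 12 bases in miR-466q and miR-467f and 11 in miR-466i-3p, and the longest stretch of alternating G and U was 9 bases in miR-466k. In the other 4 the longest stretch was shorter or equal, with 9 bases in miR-467g, 8 in miR-669n and 7 in miR-466j and miR-467h. The seed letters of miR-467g, AUACAUA, occur in 84.7% of the 59 precursors inside Sfmbt2 against 6.49% of all 2202 annotated mouse miRNA precursors. Those of miR-466i-3p, UACACAC, occur in 62.7% against 8.17%, and those of miR-466k, GUGUGUG, in 52.5% against 9.54%. The seed letters of miR-466j occur in 50.8% against 4.81%. Those of the other 4 were held by fewer of the precursors inside Sfmbt2, with 20.3% for miR-466q, 16.9% for miR-467f, 15.3% for miR-669n and 1.69% for miR-467h, against 2.63%, 5.13%, 2.59% and 0.636% of all precursors. These are matches anywhere on the sense strand of a precursor and do not mark the seed of another mature miRNA. Long exact stretches are shared as well. A run of 22 bases of miR-466k is found in 7 precursors inside Sfmbt2, among them Mir466o and Mir466p, and a run of 21 bases of miR-466i-3p is found in Mir466f-2. A run of 18 bases of miR-669n is found in Mir669c, and a run of 18 bases of miR-467h in Mir669l, both of which were counted in the neural tube.

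All 10 members outside Sfmbt2 had 0 counts in library 1 and 0 in library 2. They are Mir466f-4, Mir466i, Mir466j, Mir466k, Mir466q, Mir467f, Mir467g, Mir467h, Mir669n and Mir297-1, on 7 chromosomes. Mir466q (chromosome 3, 28419943 to 28420018) lies on the same strand as Tnik, within an intron. Mir466i, Mir466k, Mir467f, Mir467g and Mir669n lie in introns on the opposite strand of Cdk13, Gm37240, Fxr2, Grk4 and Slc30a7, and the other 4 overlap no annotated gene other than a miRNA gene. For any of the 10, a level under 0.497 CPM in library 2 would not have been detectable at this depth. That limit leaves out reads that aligned to several places. The mature sequence of miR-467h was held by 3 annotated precursors, and 9 of the 10 shared a 20-base stretch with another precursor. Reads from such stretches may have been counted in no gene, which was not tested. Of all genes in the tables, 64.1% likewise had no count in either library.

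Inside Sfmbt2, 9 of 59 members were detected, meaning at least 10 counts in each library, beside 18.4% of all genes in the tables. A further 12 had some count below that minimum and 38 had none. By family, including the members elsewhere, 3 of 17 Mir467 genes, 5 of 21 Mir669 genes, 1 of 25 Mir466 genes and 0 of 6 Mir297 genes were detected. Together the members took 15610 counts in library 1 and 21858 in library 2, which is 3692 and 3619 CPM, or 3655 ± 51.3 CPM (SD, n = 2). With multimapping reads added to the library size the level was 2337 CPM. The 9 detected genes held 99.8% of those counts in library 1 and 99.9% in library 2. On the opposite strand the members had 0 counts in both libraries.

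**Figure D1:**
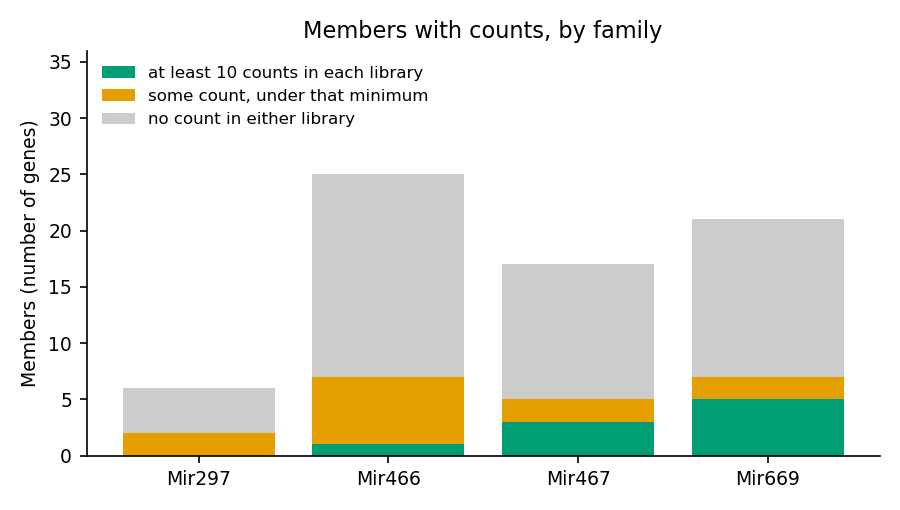
Number of member genes (vertical axis) in each family (horizontal axis), split by color into genes with at least 10 counts in each library, genes with some count under that minimum, and genes with no count. In every family the genes with no count are the largest class, and detected genes number 0, 1, 3 and 5 from left to right.

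Mir467e, Mir467d and Mir467c held most of the members' counts, which leave out reads that aligned to several places. Mir467e (ENSMUSG00000076948.2, chromosome 2, 10505721 to 10505807) had 4821 counts in library 1 and 6279 in library 2, or 1140 and 1040 CPM. Mir467d (ENSMUSG00000077021.2, 10507630 to 10507714) had 4532 and 6607 counts, or 1072 and 1094 CPM. Mir467c (ENSMUSG00000077049.2, 10473931 to 10474027) had 3598 and 5329 counts, or 851 and 882 CPM. Mir467e and Mir467d overlapped in level, at 1090 ± 71.1 and 1083 ± 15.7 CPM (SD, n = 2), whereas Mir467c was below both of them in each library. Together the 3 genes held a share of the members' counts of 83.0% for library 1 (Wilson interval at 95%, 82.4 to 83.5) and 83.3% for library 2 (82.8 to 83.8).

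The order of Mir467e and Mir467d differed between the pools. In library 1, Mir467e took 30.9% of the members' counts (95% Wilson interval 30.2 to 31.6) and Mir467d took 29.0% (28.3 to 29.8). In library 2, Mir467e took 28.7% (28.1 to 29.3) and Mir467d took 30.2% (29.6 to 30.8). Their intervals did not overlap within either library, and neither gene can be ranked above the other over both. Among all 1973 genes they ranked 79 and 80 by mean CPM, and Mir467c ranked 92. Their nearest neighbours in level were Mir301 with 1203 ± 18.4 CPM and the imprinted Mir770 with 1180 ± 141 CPM above, and Mir16-1 with 1065 ± 147 CPM below (SD, n = 2). The spreads of Mir770 and Mir16-1 overlapped that of Mir467e.

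The Mir669 genes formed the second tier, with 609 and 593 CPM for the family. Mir669o (ENSMUSG00000077086.1, chromosome 2, 10514300 to 10514395) led with 1219 and 1705 counts, or 288 and 282 CPM. Mir669l (ENSMUSG00000076959.1, 10468971 to 10469068) had 786 and 1056 counts, or 186 and 175 CPM. Mir669c (ENSMUSG00000076118.1, 10509296 to 10509404) had 505 and 714 counts, or 119 and 118 CPM. These 3 genes kept the same order in each library with no overlap. Mir669e (10467495 to 10467613) was far lower, with 42 and 79 counts or 9.93 and 13.1 CPM. Mir669h (10518155 to 10518279), the last member of the cluster, had 24 and 19 counts or 5.68 and 3.15 CPM, the lowest level of any detected member.

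The Mir466 and Mir297 families were close to absent among the counted reads. Mir466n (ENSMUSG00000077991.1, chromosome 2, 10513741 to 10513834) was the detected Mir466 gene, with 50 and 45 counts or 11.8 and 7.45 CPM, a range that overlapped that of Mir669e. The whole Mir466 family, with 25 genes, came to 58 and 53 counts. Mir297a-2 was just outside the detection rule, with 19 counts in library 1 and 9 in library 2, and the Mir297 family came to 21 and 9. The next members by count were Mir669f with 0 and 6, Mir466h with 4 and 1 and Mir467b with 3 and 1. They were followed by Mir466o and the gene named Mir466 with 1 and 2 each, and Mir466l with 0 and 3. Apart from Mir297a-2, these counts are too few to order the genes.

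**Figure D2:**
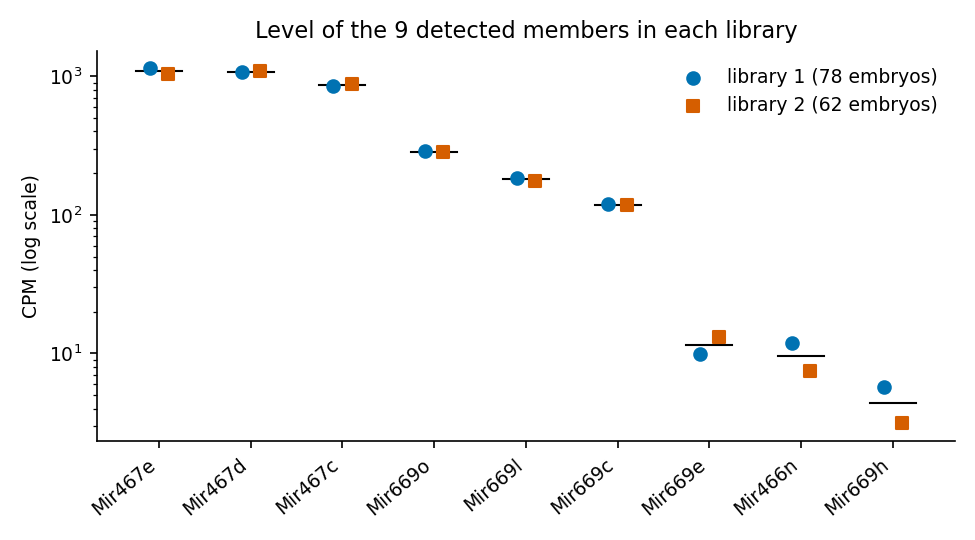
Level of the 9 detected members in CPM (vertical axis, log scale) in library 1 (circles) and library 2 (squares), with the mean as a line. The Mir467 genes lie between 851 and 1140 CPM, 3 Mir669 genes between 118 and 288 CPM, and the last 3 genes between 3.15 and 13.1 CPM.

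The 59 members inside Sfmbt2 lie on the plus strand, the strand of the host gene, within 51.6 kb (chromosome 2, 10466663 to 10518279 of mm10). This stretch falls in a 62.5 kb intron, between exons 10 and 11 of transcript Sfmbt2-201, and 0 members overlap an Sfmbt2 exon. The median gap between neighbouring precursors was 314 bases. Detected genes sat toward the ends. Among the first 13 members, up to Mir467c, 3 were detected, and among the last 20, from Mir467e on, 6 were detected. Between them lay 26 consecutive members over 31.7 kb with 4 counts in library 1 and 2 in library 2, and 0 of them were detected. The stretch was picked from the counts as the longest run between detected genes, so its low counts follow from that choice and are a description. That middle stretch holds the 10 copies of Mir467a, spaced by a median of 2462 bases from start to start, and 7 copies of Mir466b. The Mir467a copies had 0 and 1 counts in all and the Mir466b copies 0 and 0.

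**Figure D3:**
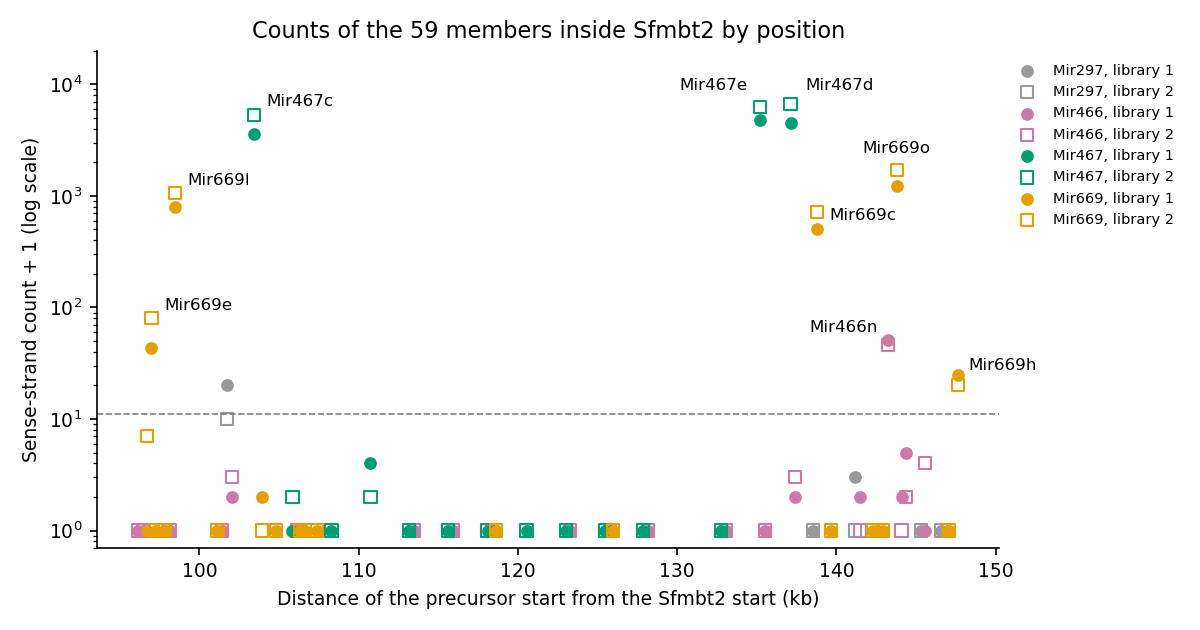
Sense-strand count plus 1 (vertical axis, log scale) of the 59 members inside Sfmbt2 against the distance of the precursor's start from the start of Sfmbt2 in kb (horizontal axis), colored by family, with library 1 filled and library 2 open. The dashed line marks the minimum of 10 counts, and the 26 members between Mir467c and Mir467e all lie under it.

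The middle stretch also held the precursors with the least sequence of their own. Each precursor was divided into overlapping windows of 20 bases, and a window was called unique when no other annotated mouse miRNA precursor held it on either strand. Across the 26 middle members the median share of unique windows was 0%, and 19 of them had no unique window. Across the other 33 members inside Sfmbt2 it was 41.5%, a description only, since counts set the bounds of the stretch. The 10 Mir467a precursors have only 3 distinct sequences, 6 of them being identical, and the 7 Mir466b precursors have 5. Of all 69 members, 20 had no unique window, and 0 of those were detected, beside 5 of 264 such genes over the whole table. Reads from identical copies align to several places and by the counting rule add to no gene, so counts of 0 for these members do not give their level.

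Sequence of their own was found in all 9 detected members, with shares of unique windows from 37.9% in Mir467d to 95% in Mir669e. The counting rule favours such members, so this is a description. The windows span the whole precursor and do not show whether the part that gave the reads is unique. Share and count were not in the same order. Mir467d, with the lowest share of the 9, had 4532 and 6607 counts, and Mir669e, with the highest, had 42 and 79. Of the 50 members inside Sfmbt2 that were not detected, 40 had a lower share than Mir467d. The other 10 reached at least that share and had at most 6 counts in a library. They include Mir466g with 100% unique windows and 1 and 0 counts, Mir466h with 93.5% and 4 and 1 counts, Mir669b with 87.2% and 0 and 0, and Mir466l with 85.3% and 0 and 3, named after their values were seen. Among the 10 members elsewhere, 9 reached the share of Mir467d, and the median was 70.0%. The windows were compared with annotated precursors and not with the rest of the genome, so the part of multimapping in these low counts was not tested.

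**Figure D4:**
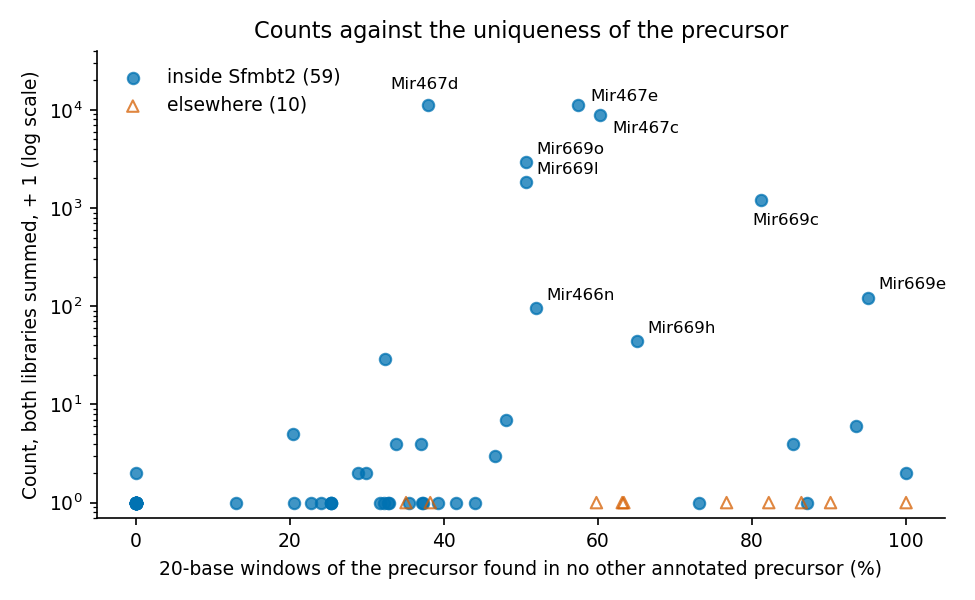
Count summed over both libraries plus 1 (vertical axis, log scale) against the percentage of 20-base windows found in no other annotated miRNA precursor (horizontal axis) for the 69 members, with circles inside Sfmbt2 and triangles elsewhere. Detected members span 37.9% to 95%, and the triangles lie at a count of 0 from 35.1% to 100%.

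The pools gave nearly equal levels for the cluster. The log2 ratio of library 1 over library 2, for the members inside Sfmbt2 summed, was -0.0052 (95% counting interval -0.03 to 0.02) with TMM scaling, which aligns the bulk of genes. It was 0.029 with library sizes alone. The median over the 9 detected members was -0.00355, and the median over all 363 detected genes had the same value, since Mir669o is the middle gene of both. A two-sided exact binomial test compared the pools for each of the 363 genes, with Benjamini-Hochberg adjustment over all of them. It compares these libraries and takes account of counting error alone. It called 3 of the 9 members, while 49.9% of all detected genes were called.

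The 3 called members were the Mir467 genes, and they did not share a direction. Mir467e was higher in library 1, with a log2 ratio of 0.10 (95% interval 0.04 to 0.15, exact binomial test, adjusted p = 0.000924), beside 25.6% of all genes called in that direction. Mir467c was higher in library 2, with a log2 ratio of -0.09 (-0.15 to -0.02, adjusted p = 0.0134), beside 24.2% called that way. Mir467d was also higher in library 2, with a log2 ratio of -0.06 (-0.12 to -0.01, adjusted p = 0.0473). These are differences of 1.07-fold, 1.06-fold and 1.04-fold. With library sizes alone the adjusted p was 0.164 for Mir467c and 0.416 for Mir467d, and with DESeq2 size factors it was 0.0190 and 0.0641, so those calls rest on the scaling. Mir467e was called under each scaling. The epithelial, mesenchymal and endocrine marker lists given above were higher in library 1, with log2 ratios of 3.08, 2.08 and 2.33. Mir467e was higher there too. The summed lists of blood (Mir451a, Mir144, Mir142b and Mir223), at 0.49, and of placenta and early embryo, at 0.41, had the same direction. Endothelial Mir126a, at 0.13, did as well. Within the blood list, Mir223, at 0.94, and Mir144, at 0.58, were called higher in library 1. Mir451a was at 0.01, not called, and Mir142b had no count. Of the placenta and early embryo genes, Mir675, at 0.96, and Mir292, at 0.97, were higher in library 1, the last not called. Mir293, at -0.42 and not called, was higher in library 2. Below the minimum, Mir294, Mir295 and Mir291a had more CPM in library 2, and Mir291b had more in library 1. When summed, the neural list, at -0.17, and the axial list of Mir10 and Mir196 genes, at -0.11, were higher in library 2. So was the striated muscle list (Mir1a, Mir133a and Mir206 genes), at -0.38 with 1 of 4 detected, and so were Mir467c and Mir467d. Within the axial list, Mir10a, at -0.10, and Mir10b, at -0.15, were higher in library 2. The Mir196 genes went the other way, with 0.60 for Mir196b, 0.29 for Mir196a-2 and 0.24 for Mir196a-1, the last not called. The part of these lists was not tested.

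The other 6 detected members did not pass the binomial test. The abundant Mir669 genes had log2 ratios near 0, with 0.05 for Mir669l (95% interval -0.08 to 0.19), -0.02 for Mir669c (-0.19 to 0.15) and -0.00355 for Mir669o (-0.11 to 0.10). The last 2 values were 0.01 and 0.03 with library sizes alone. The sparse genes left room for larger differences, with -0.43 for Mir669e (-1.01 to 0.13), 0.63 for Mir466n (0.02 to 1.25) and 0.82 for Mir669h (-0.11 to 1.77). The adjusted p-values of the exact binomial test were 0.199, 0.0719 and 0.117. The test of edgeR adds a spread between pools, 34.3% as a coefficient of variation estimated over all detected genes. It called 0 of the 9, with 0 at an unadjusted p under 0.05, and 2.2% of all detected genes. That spread was estimated from the same 2 libraries, so differences between the pools were themselves counted as spread. The 0 of 9 therefore cannot decide whether the small differences above are real.

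**Figure D5:**
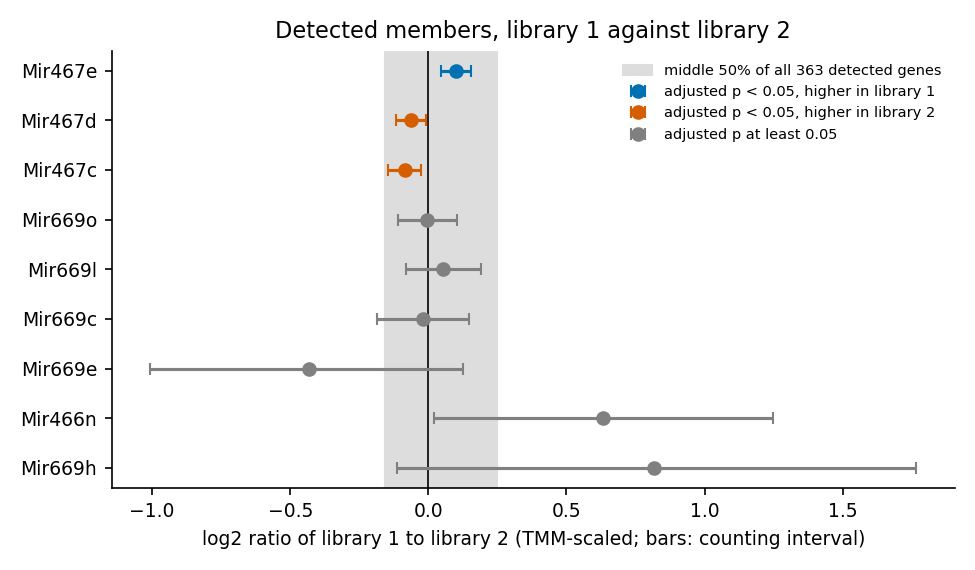
Log2 ratio of library 1 over library 2 (horizontal axis, TMM-scaled) for the 9 detected members, with 95% counting intervals as bars and the middle 50% of all 363 detected genes shaded. The 6 most abundant members lie within the shaded range of -0.16 to 0.25, while Mir669e, Mir466n and Mir669h lie outside it with wide intervals.

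Other large miRNA clusters are set beside the Sfmbt2 cluster as a description. In the imprinted Dlk1-Dio3 region on chromosome 12, taken from Mir770 to Mir3072, 45 of 57 genes were detected, against 9 of 59 inside Sfmbt2. In a germline cluster on the X chromosome, 0 of 18 were, beside 18.4% of all genes. A window shared with another precursor was present in 13 of 57 Dlk1-Dio3 genes, 5 of 18 X-linked genes and 58 of 59 genes inside Sfmbt2. Over all genes with an annotated precursor the share was 50.3%. Detected genes had a median of 332 CPM in the Dlk1-Dio3 region, 180 CPM inside Sfmbt2 and 136 CPM over all genes.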

How the data were processed

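The deposited tables hold raw counts per annotated miRNA gene, as the authors made them, 1 table per library, with counts on each strand and on both. Build mm10 and annotation GENCODE M4 are named per the file headers in the texts deposited with the samples, and the aligner and counter were not given in the sources used here. Entries that name no gene held 45.7% and 47.7% of the reads and were left out. GENCODE M21, on the same assembly, gave symbols and positions: 1894 of 1973 identifiers matched without the version, and all 69 members with it. Another 12 members of M21, such as Mir466e and Mir669a-4, had no entry among the deposited counts and were not analysed. The numbers of copies and the gaps between neighbours given above leave them out.

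The sense strand was column 3, as the rule for the members sets. Library sizes were scaled with TMM (edgeR 4.0.16, R 4.3.3), with DESeq2 1.42.0 size factors, library sizes alone, other minimum counts, unstranded counts, thinning and leaving out a library as alternatives. The libraries were not copies of each other, as a chi-square over their counts was 116275 (438 degrees of freedom). The binomial test was tested on simulated data for the 363 genes of that comparison. It found 88.1% at a 1.5-fold change, 87.7% at 2-fold and 100% at 4-fold, and 1.84% where nothing was changed. The simulated counts held counting error alone, without a spread between pools, which is what the test assumes. The 1.84% follows from that setting and is no rate of false calls between these pools. Every detected member and the 5 next by count, ties included, are named. Members and lists were chosen with earlier results of these data known. P-values measure only the counting error between these libraries, each a pool of embryos. Python 3.11.15 with pandas 2.3.3, numpy 2.4.6, scipy 1.17.1 and matplotlib 3.10.9 was used.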

Additional observations from a re-analysis of the deposited data

How the results depend on the processing

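The summed level inside Sfmbt2, 3655 CPM, was 3593 CPM with unstranded counts and 2337 CPM with multimapping reads in the library size, and 3619 to 3692 CPM with either library left out. The level outside Sfmbt2 was 0 under every alternative run. Detected members numbered 14 with a minimum of 1 count, 8 to 10 under the other minimums, and 9 to 10 with either library left out. Called members numbered 1 with library sizes alone, 2 with DESeq2 size factors or with library 2 thinned, and 0 with edgeR's exact test, which called 8 of the 363 genes against 181 for the binomial test. The log2 ratio of the members inside Sfmbt2 was 0.029 with library sizes alone, -0.050 without Mir467e and, in an alternative chosen after seeing the data, 0.026 without Mir467c, Mir467d and Mir467e. The cause was not tested. The share held by Mir467e was 28.7% to 30.9% with either library left out. The 2 members without a shared stretch of 20 bases became 1 at 18 bases and 4 at 25, also chosen after seeing the data. No paired analysis was possible because there is 1 group.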
